A study of Mus with 9 samples.

Results

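Heat shock proteins and their DnaJ co-chaperones were followed at the RNA level in the kidneys of ageing mice. Every protein-coding gene whose symbol begins with Hspa, Hspb, Hspd, Hspe, Hsph, Hsp9, Dnaja, Dnajb or Dnajc was taken, by name alone and with no measured value. This gave 74 of the 54532 genes in the deposited table, of which 22046 are protein-coding. By family they are 3 Hsp90, 11 Hsp70, 3 Hsp110, 7 small heat shock proteins, 2 subunits of the mitochondrial chaperonin, 4 DnaJA, 13 DnaJB, 28 DnaJC and 3 genes that carry Hspb in their symbol without being small heat shock proteins (Hspb11, Hspbap1 and Hspbp1).

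The 9 libraries came from kidneys of male C57BL/6 mice with no transgene named, 3 libraries in each group. That each library is a separate mouse is not stated in the sources used here, so the p-values measure the spread between these samples, which may be in part technical, and "kidney" below stands for the sample of 1 library. By the study's methods the mice of all 3 groups lost a kidney by unilateral nephrectomy at 18 months of age, the controls included. Mice labelled 18 mo were killed 1 week later. Those labelled 21 mo were given daily intraperitoneal saline for 12 weeks, and those labelled 21 mo/O304 were given O304, an activator of the energy-sensing kinase AMPK, over the same 12 weeks. The daily dose of O304 was 10 mg/kg. Age, time since surgery and the injections all separate the 18 mo group from the other groups and cannot be told apart in the comparisons with it. The comparison of 21 mo/O304 with 21 mo addresses the drug at the same age.

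Chaperones bind proteins that are not yet, or no longer, folded. Hsp70 proteins clamp onto exposed hydrophobic stretches in a cycle driven by ATP. DnaJ proteins bring them clients and trigger ATP hydrolysis through the J domain, Hsp110 proteins and BAG proteins release the nucleotide again, and Hsp90 takes over clients such as kinases and receptors. Small heat shock proteins hold unfolded clients without ATP. The endoplasmic reticulum (ER) and the mitochondria have their own sets, led by Hspa5 (BiP) and Hsp90b1 (Grp94) in the former and by Hspa9 (mortalin) and the Hspd1/Hspe1 chaperonin in the latter. Heat shock factor Hsf1 drives the stress-inducible cytosolic genes, while the unfolded protein response drives those of the ER. The tubules of the kidney are rich in mitochondria and secrete and reabsorb much protein.

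Totals of 15636378 to 18396725 counts per library were deposited. Proximal tubule markers summed to 12356, 15617 and 14585 at 18 mo, 12383, 5980.3 and 1518 at 21 mo and 11979.8, 13389 and 13949.7 under O304, in CPM (counts scaled to library size with TMM factors), so the label of the tissue holds in all 9 libraries. The 21 mo libraries differed widely among themselves, with a biological coefficient of variation of 44.0%, where the 18 mo libraries had 18.0% and the treated ones 20.6%. Markers of injured tubule (Havcr1, Lcn2, Krt20, Vcam1 and Sox9) summed to 44.3, 52.7 and 45.1 at 18 mo, 70.6, 1090.2 and 1525 at 21 mo and 45.9, 41.5 and 61.8 under O304. Replicates 2 and 3 of the 21 mo group therefore stood apart from the other 7 libraries. Replicate 1 lay within the 18 mo range in proximal tubule markers, but its injured tubule sum was above every 18 mo and treated kidney. Neutrophil markers summed to 10.4, 5.11 and 9.90 at 18 mo, 51.0, 16.1 and 44.3 at 21 mo and 10.9, 8.70 and 17.8 under O304, with 21 mo replicate 1 highest. In whole kidney, fewer cells of a type and less RNA per cell cannot be told apart.

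Of the 74 genes, 66 had enough counts to be tested. The 8 others were Hspb9, Dnajb3, Hspa1l, Dnajb7, Dnajb8, Dnajc5b, Dnajc5g and Hspb3, genes known mostly from testis, sperm or muscle. Dnajc5b, Dnajc5g and Hspb3 had a count of 0 in all 9 libraries, which allows up to 3 counts in a library. Compared per length (FPKM, averaged over the 9 libraries), Hspa8 was the most abundant at 523 FPKM, followed by Hsp90ab1 at 465. Both are the constitutive cytosolic forms of their families. The mitochondrial genes Hspd1 (214 FPKM), Hspa9 (171) and Hspe1 (125) and the ER gene Hspa5 (139) came next, then Hsp90aa1 (122) and Hsp90b1 (82.5). The stress-inducible Hsp70 genes stood far lower, at 15.7 FPKM for Hspa1b and 5.72 FPKM for Hspa1a. Among the DnaJ genes, Dnaja2 (56.9 FPKM) and Dnajc22 (50.0) were highest. Summed over the 74 genes, the level was 8213, 9480.4 and 9273 at 18 mo, 10611, 10402 and 6750.4 at 21 mo and 11233, 12202 and 11997 under O304, in CPM. All 3 sums of the 21 mo/O304 group lay above those of the other 6 kidneys, and replicate 3 of the 21 mo group was the lowest.

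No member passed an adjusted p of 0.05 in the edgeR quasi-likelihood test in any of the 3 comparisons. The same test called 0.0189% of the 15902 genes tested for 21 mo against 18 mo, and 0% when the treated group was compared with the 21 mo group and 0% when it was compared with the 18 mo group. The smallest adjusted p among the members was 0.0626, 0.175 and 0.323 in that order. At an unadjusted p under 0.05, 17 of 66 members (25.8%) differed between 21 mo and 18 mo, 7 higher and 10 lower, beside 26.1% of all genes, so that the members' share was that of the background. For 21 mo/O304 against 21 mo, 19 members (28.8%) did, 11 higher and 8 lower, beside 20.7% of all genes. For 21 mo/O304 against 18 mo, 14 members (21.2%) did, 7 higher and 7 lower, beside 9.66% of all genes. The libraries of the groups did not overlap for 15 members (22.7%), 16 members (24.2%) and 28 members (42.4%) in these comparisons, beside 28.8%, 21.3% and 26.5% of all genes. The comparisons share libraries, so these counts are not independent of each other.

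The number of calls depended on the 21 mo libraries and on the tool. Without replicate 1 of the 21 mo group, edgeR called 17 of 68 members (25%) for 21 mo against 18 mo, beside 25.4% of all genes, and 22 of 68 (32.4%) for 21 mo/O304 against 21 mo, beside 23.1% of all genes. DESeq2 on all libraries called 6 of 68 members for 21 mo against 18 mo (8.82%, beside 12.3% of all genes) and 5 of 67 for O304 against saline (7.46%, beside 6.07%). For 21 mo/O304 against 18 mo it called 5 of 65 members (7.69%), beside 0.869% of all genes. With limma voom and sample quality weights, 37 of 66 members (56.1%) were called for 21 mo against 18 mo, 34 (51.5%) for O304 against saline and 7 (10.6%) for 21 mo/O304 against 18 mo, beside 52.9%, 41.1% and 2.61% of all genes. In that fit 21 mo replicate 2 had a weight of 9.11 and the other two 21 mo kidneys 0.223 and 0.132, so its comparisons with the 21 mo group rest mainly on 1 kidney. With only the 6 libraries of 21 mo/O304 and 18 mo in the edgeR fit, 1 of 65 members (1.54%) passed, beside 0.144% of all genes, and it was Hsp90b1. The unadjusted count of 17 lay between 7 and 11 without any 1 of the 18 mo replicates (10.1 to 16.2%, beside 16.4 to 20.6% of all genes). It was 8 without 21 mo replicate 2 (11.8%, beside 20%) and 27 without 21 mo replicate 1 (39.7%, beside 40.2%). The count of 19 was 33 without 21 mo replicate 1 (48.5%, beside 38.7%) and 9 without 21 mo replicate 2 (13.2%, beside 15.2%). It was 12 without 18 mo replicate 3 (17.6%, beside 17.4%) and 9 to 11 without any 1 of the 21 mo/O304 replicates (13.2 to 15.9%, beside 12.3 to 15%). For the genes the results turn on, the values in each kidney are given beside the tests.

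**Figure D1:**
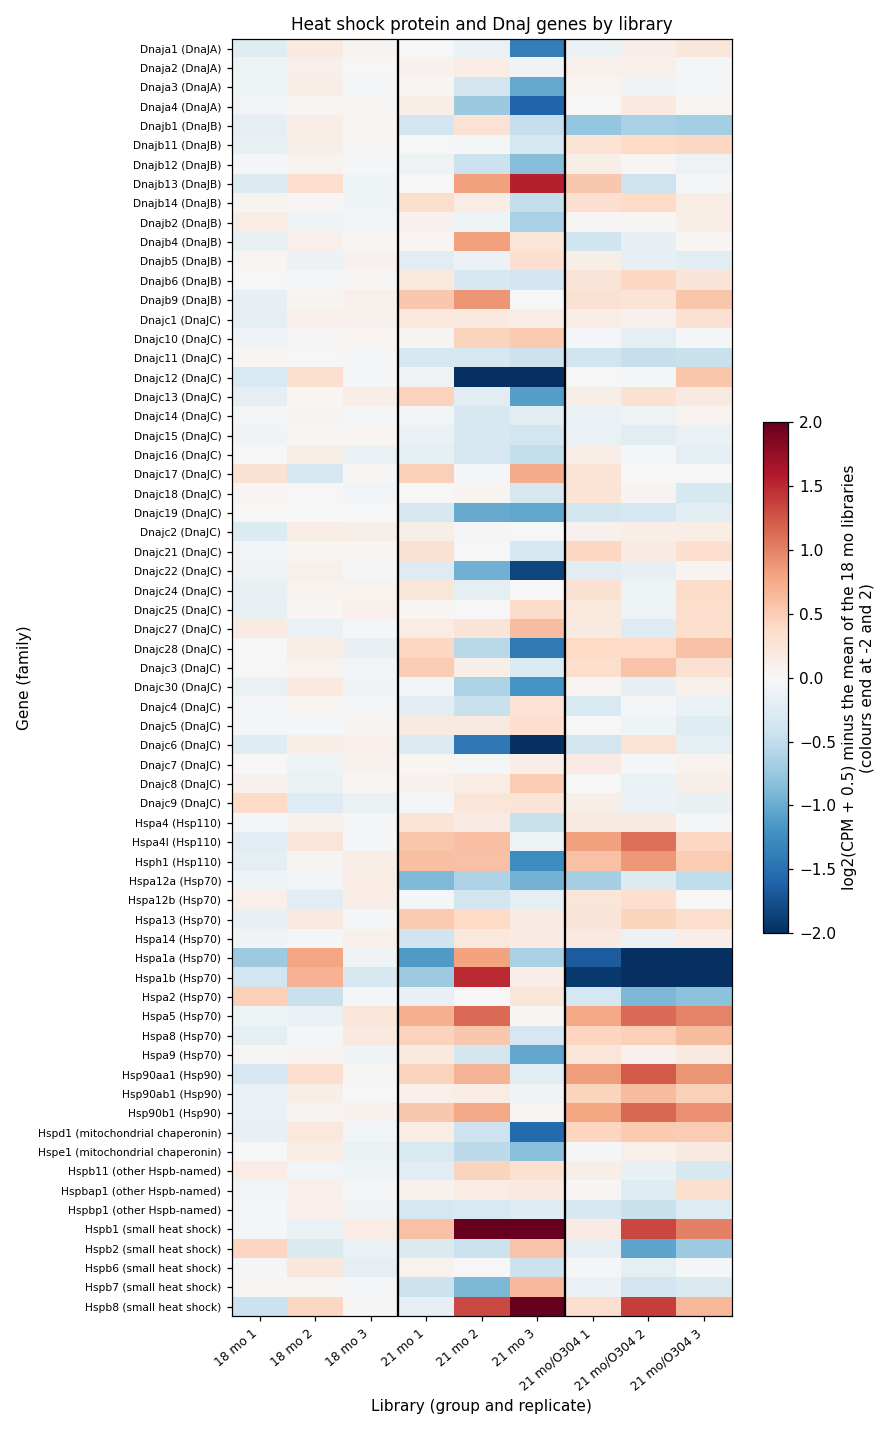
Heat map of the 66 tested heat shock protein and DnaJ genes (vertical axis, with their family) in the 9 kidney libraries (horizontal axis), as log2(CPM + 0.5) minus the mean of the 3 18 mo libraries. Hspa1a and Hspa1b are lowest in the 3 21 mo/O304 kidneys, the Hsp90 genes are highest there, and the 21 mo kidneys differ from each other. Hspb1 is high and most mitochondrial genes are low in 21 mo replicates 2 and 3, while Dnajc4 is high in replicate 3.

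The Hsp70 genes that stress induces most, Hspa1a and Hspa1b, were lowest in the kidneys given O304. They encode nearly the same cytosolic protein and lie close together (Hspa1b at chr17:34956436-34959238 and Hspa1a at chr17:34969190-34972156, both on the minus strand, GRCm38 as the submitters' notes name it). Hspa1b was at 37.1, 79.2 and 39.0 CPM at 18 mo, 29.1, 138 and 53.3 CPM at 21 mo and 12.4, 7.63 and 11.1 CPM under O304. The 3 treated kidneys lay below all others, and the untreated ones spread widely, with 21 mo replicate 2 highest. Its level was 0.141 times that of the 21 mo group (log2 difference -2.82 ± 0.57, SE, edgeR adjusted p = 0.175, DESeq2 adjusted p = 5.69e-05) and 0.201 times that of the 18 mo group (adjusted p = 0.337 in edgeR and 0.00578 in DESeq2).

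Hspa1a was at 13.8, 40.4 and 21.9 CPM at 18 mo, 10.3, 40.9 and 14.6 CPM at 21 mo and 6.98, 3.10 and 5.16 CPM under O304. Again no treated kidney reached the lowest untreated one. On the log2 scale the treated group differed by -2.11 ± 0.59 against 21 mo (edgeR adjusted p = 0.175, DESeq2 0.00926) and -2.32 ± 0.59 against 18 mo (edgeR adjusted p = 0.337, DESeq2 0.0118). How reads shared by the pair were counted is not stated, so the split between them is uncertain, and Hspa1a took 21.5 to 36.0% of their sum in every library. The sum itself, which does not depend on that split, was 50.9, 120 and 61.0 CPM at 18 mo, 39.4, 179 and 67.8 CPM at 21 mo and 19.4, 10.7 and 16.2 CPM under O304. If reads matching both genes were not counted, they are missing from this sum and from the FPKM of both. Neither gene differed in a steady direction between 21 mo and 18 mo, where the libraries overlapped.

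Dnajb1, the DnaJ partner of stress-induced Hsp70 (Hsp40), was at 61.0, 75.7 and 71.2 CPM at 18 mo, 53.2, 84.2 and 50.2 CPM at 21 mo and 40.3, 44.0 and 43.0 CPM under O304. Its treated kidneys were again the lowest 3 of the 9 and lay close together. The log2 difference was -0.56 ± 0.19 against 21 mo and -0.71 ± 0.19 against 18 mo (edgeR adjusted p = 0.188 and 0.345). Hspa2, an Hsp70 best known from testis, was at 10.5, 5.36 and 7.30 CPM at 18 mo, 6.69, 7.39 and 8.89 CPM at 21 mo and 5.76, 3.75 and 4.01 CPM under O304. Its treated kidneys were below all 21 mo kidneys but overlapped the 18 mo range, with a log2 difference of -0.76 ± 0.29 against 21 mo (adjusted p = 0.206). For Dnajb4 the log2 difference against 21 mo was -0.57. Hsf1 itself, the factor that drives these genes, differed by 0.17 against 21 mo and 0.15 against 18 mo (adjusted p = 0.465 and 0.777). Immediate early genes (Fos, Fosb, Jun, Junb, Egr1, Atf3, Ier2 and Dusp1), which respond quickly to many stimuli and were added after the values were seen, summed to 156, 270.1 and 159.9 at 18 mo, 149, 378 and 717 at 21 mo and 246, 197 and 365 under O304, in CPM. At 21 mo they were highest in replicate 3 and Hspa1b in replicate 2, and both were lowest in replicate 1. Both were highest in replicate 2 of the 18 mo group and lowest in replicate 2 under O304. Under O304 the immediate early sum was highest in replicate 3 and Hspa1b in replicate 1. The immediate early sums under O304 overlapped those at 18 mo, while Hspa1b did not. The relation of the immediate early genes to Hspa1a and Hspa1b was not tested.

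The cytosolic Hsp90 genes were highest in the treated kidneys, without passing in edgeR. Hsp90aa1, the inducible cytosolic Hsp90, was at 274, 431 and 351 CPM at 18 mo, 477, 556 and 299.8 CPM at 21 mo and 619, 807 and 640.2 CPM under O304. The 3 treated values exceeded the other 6, and the 18 mo and 21 mo groups overlapped. Its log2 difference under O304 was 0.63 ± 0.27 against 21 mo and 0.97 ± 0.27 against 18 mo (edgeR adjusted p = 0.233 and 0.345). Hsp90ab1, the constitutive form, was at 1134, 1346 and 1241 CPM at 18 mo, 1327, 1377 and 1183 CPM at 21 mo and 1691, 1917 and 1718 CPM under O304. It too was highest in the treated kidneys, by 0.45 ± 0.20 and 0.52 ± 0.20 on the log2 scale, and passed in DESeq2 in both comparisons (adjusted p = 0.0242 and 0.0295) but not in edgeR (0.248 and 0.476). Thus all 3 Hsp90 genes, the ER form Hsp90b1 included, had treated kidneys above every kidney of both other groups. Of the 15902 genes tested, 1723 had treated kidneys above all 21 mo kidneys and 2092 above all 18 mo kidneys. How many were above both was not counted.

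Hsp110 nucleotide exchange factors and Hspa8 overlapped between the treated and 21 mo kidneys. Hspa4l was at 31.2, 43.4 and 36.1 CPM at 18 mo, 53.8, 55.7 and 34.1 CPM at 21 mo and 64.7, 79.1 and 48.9 CPM under O304, and its treated kidneys were above the 18 mo range by 0.80 ± 0.24 (log2, adjusted p = 0.352) while overlapping the 21 mo range. Hsph1 was at 108, 128 and 134 CPM at 18 mo, 187, 185 and 51.6 CPM at 21 mo and 184, 225 and 175 CPM under O304. The lowest value was 21 mo replicate 3, and the treated kidneys exceeded those at 18 mo without passing (log2 difference 0.66 ± 0.40, adjusted p = 0.643). Hspa4 differed by 0.11 at most in any comparison. Hspa8, the constitutive Hsc70, was at 1681, 1889 and 2197 CPM at 18 mo, 2633, 2773 and 1519.8 CPM at 21 mo and 2588, 2662 and 2957 CPM under O304, so that 21 mo replicate 3 was the lowest of the 9 and the treated kidneys were above the 18 mo range (log2 difference 0.51 ± 0.30, adjusted p = 0.622). The list labelled heat-inducible cytosolic, with 17 tested members, was therefore split. It also holds Hspa4 and the constitutive Hspa8 and Hsp90ab1, so its counts and medians are not those of stress-induced genes alone. For 21 mo/O304 against 18 mo, 12 of the 17 were higher and 5 lower, with a median log2 difference of 0.11 beside 0.00 over all genes. At an unadjusted p under 0.05, 3 were higher and 3 lower (35.3%, beside 9.66% of all genes), and 0 passed the adjusted threshold. For O304 against saline, 10 were higher and 7 lower (median 0.25 beside -0.02), with 2 higher and 5 lower at an unadjusted p under 0.05 (41.2%, beside 20.7%).

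**Figure D2:**
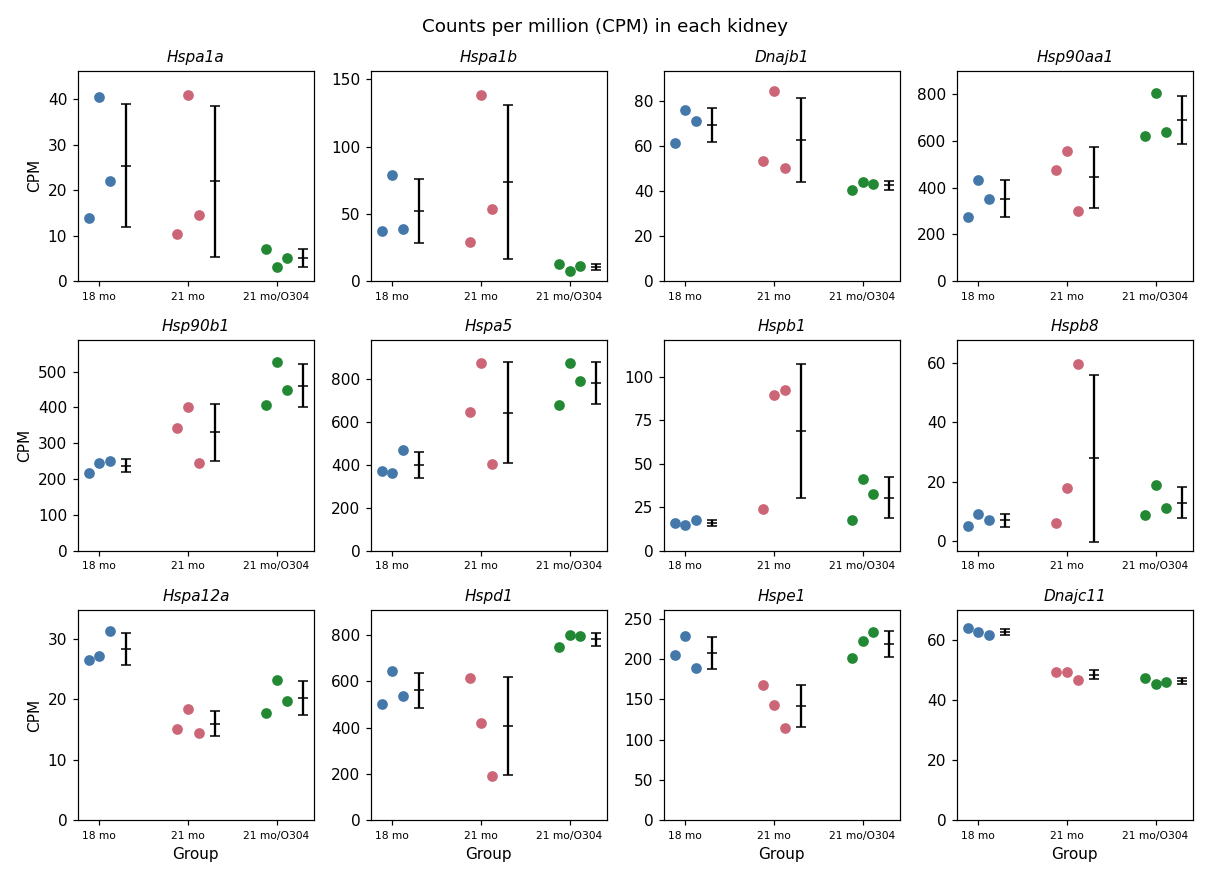
CPM (vertical axes, TMM-scaled) of 12 heat shock protein and DnaJ genes in each of the 3 groups (horizontal axes). Coloured points are single kidneys and the black bar is the mean with its SD (n = 3). The 21 mo/O304 kidneys are the lowest for Hspa1a, Hspa1b and Dnajb1 and the highest for Hsp90aa1, Hsp90b1 and Hspd1, and the 21 mo bars are wide for Hspb1, Hspb8, Hspd1 and Hspa5.

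Most ER chaperones had a higher fitted level in the treated kidneys than at 18 mo, though 0 of 12 passed the adjusted threshold in edgeR. Of the 12 in the list, 10 were higher and 2 lower (median log2 difference 0.32 beside 0.00 over all genes). At an unadjusted p under 0.05 there were 4 (33.3%, beside 9.66% of all genes), and 7 did not overlap between the groups (58.3%, beside 26.5%). Hsp90b1, which folds secreted and membrane proteins in the ER, was at 216, 245 and 250.5 CPM at 18 mo, 344, 402 and 245 CPM at 21 mo and 408, 528 and 447 CPM under O304. Its treated kidneys were the 3 highest, and 21 mo replicate 3 lay with the 18 mo kidneys. The level was 1.94 times that at 18 mo (log2 difference 0.96 ± 0.21, edgeR adjusted p = 0.323 over all 9 libraries and 0.0343 with only the 6 libraries compared, DESeq2 0.00682). It was the 1 member that passed in that smaller fit, in which the 21 mo kidneys did not enter the estimate of the spread.

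Hspa5, the ER Hsp70 that also senses unfolded protein, was at 369, 359.7 and 469.6 CPM at 18 mo, 646, 874 and 404 CPM at 21 mo and 678, 873 and 789 CPM under O304. Every treated kidney was above every 18 mo kidney, while the 21 mo group ran from the 18 mo range to the top of the treated range. The treated group differed by 0.97 ± 0.28 (log2) against 18 mo (edgeR adjusted p = 0.351, DESeq2 0.0651), 0.68 ± 0.28 for 21 mo against 18 mo (0.169 in edgeR) and 0.28 ± 0.28 for 21 mo/O304 against 21 mo (0.559).

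The DnaJ genes of the ER differed from each other. Dnajb11 (ERdj3), a co-chaperone of Hspa5, was at 87.5, 105 and 98.9 CPM at 18 mo, 95.9, 95.1 and 75.5 CPM at 21 mo and 117, 128 and 129.9 CPM under O304. The treated kidneys were the 3 highest, with a log2 difference of 0.49 ± 0.13 against 21 mo (edgeR adjusted p = 0.175, DESeq2 0.0393). Dnajb9 (ERdj4), a target of the unfolded protein response, was at 50.8, 58.8 and 61.2 CPM at 18 mo, 82.9, 105 and 56.8 CPM at 21 mo and 70.0, 68.6 and 83.1 CPM under O304, and its treated kidneys exceeded the 18 mo range by 0.38 ± 0.21 (log2, adjusted p = 0.603). Dnajc3 (p58IPK), which limits the ER stress kinase Eif2ak3, lay 0.41 ± 0.20 above 18 mo without overlap (adjusted p = 0.549). Dnajc10 (ERdj5), a disulfide reductase, followed another course at 55.2, 58.7 and 59.3 CPM at 18 mo, 59.7, 78.6 and 82.8 CPM at 21 mo and 56.2, 50.7 and 56.6 CPM under O304. It was highest in 21 mo replicates 2 and 3, all 3 21 mo values exceeded all other 6, and the log2 difference was 0.35 ± 0.13 between the untreated groups and -0.44 ± 0.13 under O304 relative to 21 mo (adjusted p = 0.144 and 0.176). Hspa13, a microsomal Hsp70, was 0.35 ± 0.13 above 18 mo (adjusted p = 0.469).

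For 21 mo against 18 mo, 9 of the 12 ER members were higher and 3 lower (median 0.17 beside 0.03 over all genes), and for 21 mo/O304 against 21 mo 8 were higher and 4 lower (median 0.26 beside -0.02). At an unadjusted p under 0.05, 5 were higher and 2 lower in the former (58.3%, beside 26.1% of all genes). In the latter 4 were higher and 1 lower (41.7%, beside 20.7%). The groups did not overlap for 4 members (33.3%, beside 28.8%) and 3 members (25%, beside 21.3%). Summed over the list, the level was 1203, 1289 and 1359.7 at 18 mo, 1766, 1998 and 1217 at 21 mo and 1850.2, 2204 and 1999 under O304, in CPM. The treated kidneys and 21 mo replicates 1 and 2 were above all 18 mo kidneys, while 21 mo replicate 3 lay among them. Markers of B and plasma cells, which are rich in ER chaperones, summed to 139.7, 105 and 226 at 18 mo, 89.8, 106 and 630.1 at 21 mo and 215, 697 and 562 under O304, mostly Jchain. They were high in 21 mo/O304 replicates 2 and 3 but also in 21 mo replicate 3, where the ER list was low, and their part in the ER list was not tested.

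Every tested chaperone of the mitochondria had a lower fitted level at 21 mo than at 18 mo. All 10 of 10 were lower, with a median log2 difference of -0.39 beside 0.03 over all genes, 4 of them (40%, beside 26.1% of all genes) at an unadjusted p under 0.05 and 4 (beside 28.8% of all genes) without overlap. The smallest difference was that of Dnajc4 (-0.09 ± 0.19), which was highest of the 9 kidneys in 21 mo replicate 3, at 28.5 CPM. Leaving out 21 mo replicate 2 left 9 of the 10 lower and 1 higher. The summed level was 1828, 2041 and 1795 at 18 mo, 1976, 1399.6 and 897 at 21 mo and 2164, 2136 and 2212 under O304, in CPM, so that 21 mo replicate 1 was within the 18 mo range and replicates 2 and 3 were below it. Hspe1, the lid of the mitochondrial chaperonin, was at 205, 229 and 189 CPM at 18 mo, 167, 143 and 115 CPM at 21 mo and 201, 222 and 233 CPM under O304. All 3 21 mo kidneys were below the other 6. The log2 difference was -0.55 ± 0.17 for 21 mo against 18 mo (edgeR adjusted p = 0.0966, DESeq2 0.0307) and 0.63 ± 0.17 for 21 mo/O304 against 21 mo (edgeR 0.175, DESeq2 0.0213).

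Hspd1, the barrel of the same chaperonin, was at 503, 643 and 535 CPM at 18 mo, 614, 419 and 190.2 CPM at 21 mo and 748, 799.6 and 793 CPM under O304. The treated kidneys were the highest 3, while the 21 mo group ran from the upper 18 mo range down to less than any other kidney. It was 0.94 ± 0.36 (log2) higher under O304 than at 21 mo (adjusted p = 0.206) and 0.48 ± 0.36 higher than at 18 mo (0.711). Hspd1 and Hspe1 lie head to head and overlap (chr1:55077835-55088243 on the minus strand and chr1:55088132-55091307 on the plus strand), so reads in the shared stretch cannot be told apart without strand. Hspa9, the mitochondrial Hsp70 that also pulls proteins through the import channel, was at 724, 739.9 and 671 CPM at 18 mo, 816, 549 and 347 CPM at 21 mo and 841, 755 and 803 CPM under O304. Among the 21 mo kidneys it too was lowest in replicate 3, and the adjusted p was 0.491 for 21 mo against 18 mo, 0.337 for O304 against saline and 0.899 for 21 mo/O304 against 18 mo.

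Dnajc19 (Tim14), the J protein of the import motor, was at 82.4, 81.0 and 81.8 CPM at 18 mo, 65.5, 40.2 and 39.5 CPM at 21 mo and 63.3, 63.7 and 70.7 CPM under O304. Its 18 mo values lay close together and above all other 6, and 21 mo replicates 2 and 3 were the lowest. The log2 difference was -0.76 ± 0.19 for 21 mo against 18 mo (edgeR adjusted p = 0.077, DESeq2 0.0129), and it was 0.45 ± 0.19 for 21 mo/O304 against 21 mo (0.229). Dnajc11, which binds the complex that shapes the cristae, was at 63.7, 62.6 and 61.7 CPM at 18 mo, 49.2, 49.3 and 46.6 CPM at 21 mo and 47.3, 45.3 and 46.1 CPM under O304. Here the 3 21 mo kidneys were alike, and the treated kidneys were as far below the 18 mo kidneys as they were. The log2 difference was -0.37 ± 0.09 for 21 mo (edgeR adjusted p = 0.0697, DESeq2 0.00616) and -0.44 ± 0.09 for 21 mo/O304 (0.323 and 0.00913), both against 18 mo. Dnajc15, a relative of Dnajc19, was -0.27 ± 0.10 for 21 mo against 18 mo, again without overlap.

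Against 21 mo, 8 of the 10 mitochondrial chaperones were higher under O304 and 2 lower (median 0.47 beside -0.02), 3 at an unadjusted p under 0.05 (30%, beside 20.7% of all genes). Against 18 mo, 4 were higher and 6 lower (median -0.02 beside 0.00). In that comparison 7 did not overlap between the groups, 3 higher and 4 lower (70%, beside 26.5% of all genes). The 8 proximal tubule markers were all lower at 21 mo than at 18 mo (median log2 difference -1.21) and all higher under O304 than at 21 mo (0.97). They were lowest in 21 mo replicate 3 and next lowest in replicate 2, as the mitochondrial sums were, and their part in the mitochondrial list was not tested. Dnajc22 and Dnajc12, DnaJ genes outside the mitochondrial list, were likewise lowest in those replicates. Dnajc12, a co-chaperone of aromatic amino acid hydroxylases, was at 176, 271 and 214 CPM at 18 mo, 207, 46.5 and 17.5 CPM at 21 mo and 216, 212 and 319 CPM under O304, a difference of -1.29 ± 0.72 (log2) with an adjusted p of 0.281. Dnajc22 was at 111, 124 and 112 CPM at 18 mo, 96.8, 58.9 and 32.0 CPM at 21 mo and 100.3, 104 and 120.1 CPM under O304, with the 3 21 mo kidneys below the other 6 (-0.89 ± 0.32, adjusted p = 0.133). Dnajc6 (auxilin), which strips clathrin from vesicles together with Hsc70, was at 27.9, 36.6 and 35.8 CPM at 18 mo, 27.5, 11.9 and 6.37 CPM at 21 mo and 25.6, 40.6 and 28.8 CPM under O304 and was likewise lowest in 21 mo replicate 3.

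**Figure D3:**
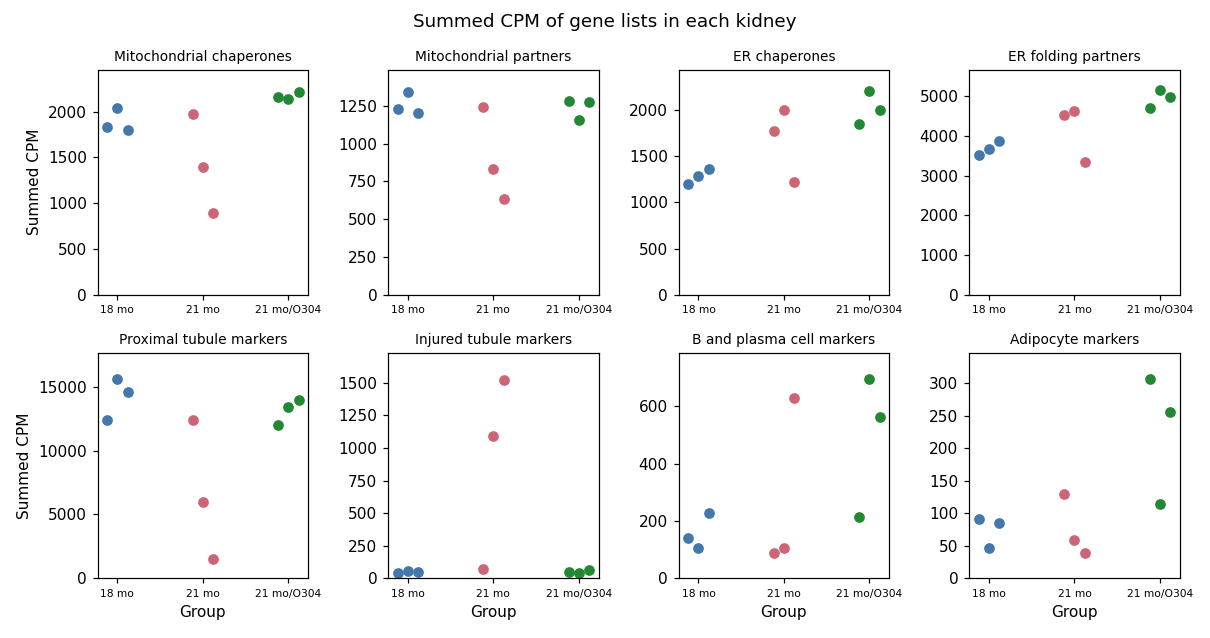
Summed CPM (vertical axes) of member lists, partner lists and cell type markers in each kidney of the 3 groups (horizontal axes). Points are single kidneys. The mitochondrial chaperones, their partners and the proximal tubule markers are low in 21 mo replicates 2 and 3, which hold the high injured tubule sums, and the ER chaperone sums of the treated kidneys are above those at 18 mo.

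Small heat shock proteins differed most within the 21 mo group. Hspb1 (Hsp25), which holds unfolded proteins and steadies actin, was at 15.7, 14.5 and 17.8 CPM at 18 mo, 24.1, 89.3 and 92.4 CPM at 21 mo and 17.9, 40.9 and 32.7 CPM under O304. All 3 21 mo kidneys were above all 3 at 18 mo, replicates 2 and 3 by far the most, and the treated kidneys lay between and overlapped the 21 mo group. The fitted level at 21 mo was 4.29 times that at 18 mo (log2 difference 2.10 ± 0.48, edgeR adjusted p = 0.0697, DESeq2 6.31e-04), and the log2 difference was -1.17 ± 0.47 for 21 mo/O304 against 21 mo (0.214) and 0.93 ± 0.47 against 18 mo (0.569).

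Hspb8, which works with Bag3 in chaperone-assisted autophagy, was at 4.95, 9.24 and 6.96 CPM at 18 mo, 6.09, 17.9 and 59.5 CPM at 21 mo and 8.72, 18.7 and 11.1 CPM under O304. A single kidney, 21 mo replicate 3, stood above the rest. The log2 difference for 21 mo against 18 mo was 1.98 ± 0.70 (edgeR adjusted p = 0.126, DESeq2 0.0269), and that for 21 mo/O304 against 21 mo was -1.12 ± 0.68, which became 0.10 without 21 mo replicate 3. Both genes were highest in 21 mo replicate 3, where the injured tubule, macrophage and fibroblast markers were also highest. Macrophage markers summed to 450.4, 267 and 342 at 18 mo, 684, 1086 and 3319 at 21 mo and 525, 506 and 533 under O304 and fibroblast markers to 159.7, 171 and 243 at 18 mo, 130.2, 553 and 1308 at 21 mo and 100.3, 152 and 239 under O304, in CPM, and their part in Hspb1 and Hspb8 was not tested. For the muscle forms Hspb6, Hspb7 and Hspb2 the log2 differences were -0.13, -0.08 and 0.00 for 21 mo against 18 mo. With voom, whose 21 mo mean rests mainly on 1 kidney, that of Hspb7 was -1.02. Of the 5 tested small heat shock proteins, 4 were lower under O304 than at 21 mo and 1 higher (median -0.996). At an unadjusted p under 0.05 there was 1 (20%, beside 20.7% of all genes). Against 18 mo they ran from -0.996 to 0.93, 0 of them at that p. Markers of skeletal muscle summed to at most 0.989 CPM in any kidney.

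The member with the smallest p for 21 mo against 18 mo was Hspa12a, a distant relative of Hsp70. It was at 26.6, 27.2 and 31.3 CPM at 18 mo, 15.2, 18.4 and 14.4 CPM at 21 mo and 17.7, 23.2 and 19.7 CPM under O304. All 21 mo kidneys, replicate 1 included, were below all 18 mo kidneys, and the treated kidneys were below the 18 mo range and overlapped the 21 mo range. The level at 21 mo was 0.563 times that at 18 mo (log2 difference -0.83 ± 0.15, edgeR adjusted p = 0.0626, DESeq2 7.38e-04). Hspbp1, which releases nucleotide from Hsp70, behaved alike at 39.8, 43.7 and 38.6 CPM at 18 mo, 31.8, 32.7 and 34.3 CPM at 21 mo and 32.3, 29.9 and 34.1 CPM under O304, with a log2 difference of -0.31 ± 0.10 for 21 mo and -0.34 ± 0.10 for 21 mo/O304 against 18 mo (adjusted p = 0.113 and 0.361). Hspa12a, Hspbp1 and Dnajc11 were thus lower in all 6 older kidneys than in the 18 mo kidneys, as were Dnajc19 and Dnajc15. How many of all genes were lower in this way was not counted. The part of the injured tubule, macrophage and neutrophil markers in these differences was not tested.

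Other DnaJ genes varied in how far they differed. Dnajc5 (cysteine string protein), which guards vesicle fusion, was at 109.8, 110.2 and 116 CPM at 18 mo, 127, 126 and 141 CPM at 21 mo and 112, 105 and 94.9 CPM under O304, slightly above both other groups at 21 mo without overlap (-0.34 ± 0.11 log2 for 21 mo/O304 against 21 mo, adjusted p = 0.186). Dnaja2, the most abundant cytosolic DnaJA, ranged over 158 to 189 CPM in all 9 kidneys and differed by at most 0.06 on the log2 scale. Dnaja1, its relative, was at 276, 371 and 339 CPM at 18 mo, 329, 297 and 125 CPM at 21 mo and 301, 355 and 379 CPM under O304, where only 21 mo replicate 3 stood apart. Dnajb6, which keeps polyglutamine proteins soluble, was higher under O304 than in every 21 mo kidney (0.46 ± 0.16, adjusted p = 0.192). Dnajb12, a DnaJ protein of the ER membrane, was at 72.4, 77.9 and 72.2 CPM at 18 mo, 69.0, 54.7 and 40.7 CPM at 21 mo and 80.1, 76.0 and 68.8 CPM under O304. All 3 21 mo kidneys were below the 18 mo range, with a log2 difference of -0.44 ± 0.18 (adjusted p = 0.162), and they overlapped the treated kidneys (0.45 ± 0.18, adjusted p = 0.209). Dnajc16 differed by -0.34 ± 0.13 at 21 mo relative to 18 mo and by 0.32 ± 0.13 under O304 relative to 21 mo (adjusted p = 0.15 and 0.226). Over the 26 tested DnaJC genes the log2 differences ran from -1.29 to 0.44 for 21 mo against 18 mo, with 26.9% at an unadjusted p under 0.05 beside 26.1% of all genes. They ran from -0.44 to 1.46 for O304 against saline, with 23.1% beside 20.7%. For 21 mo/O304 against 18 mo they ran from -0.44 to 0.47, with 3.85% beside 9.66%. The widest DnaJB difference between the untreated groups was that of Dnajb13 (1.66 ± 0.77, adjusted p = 0.211), a gene with under 2 CPM in every kidney.

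**Figure D4:**
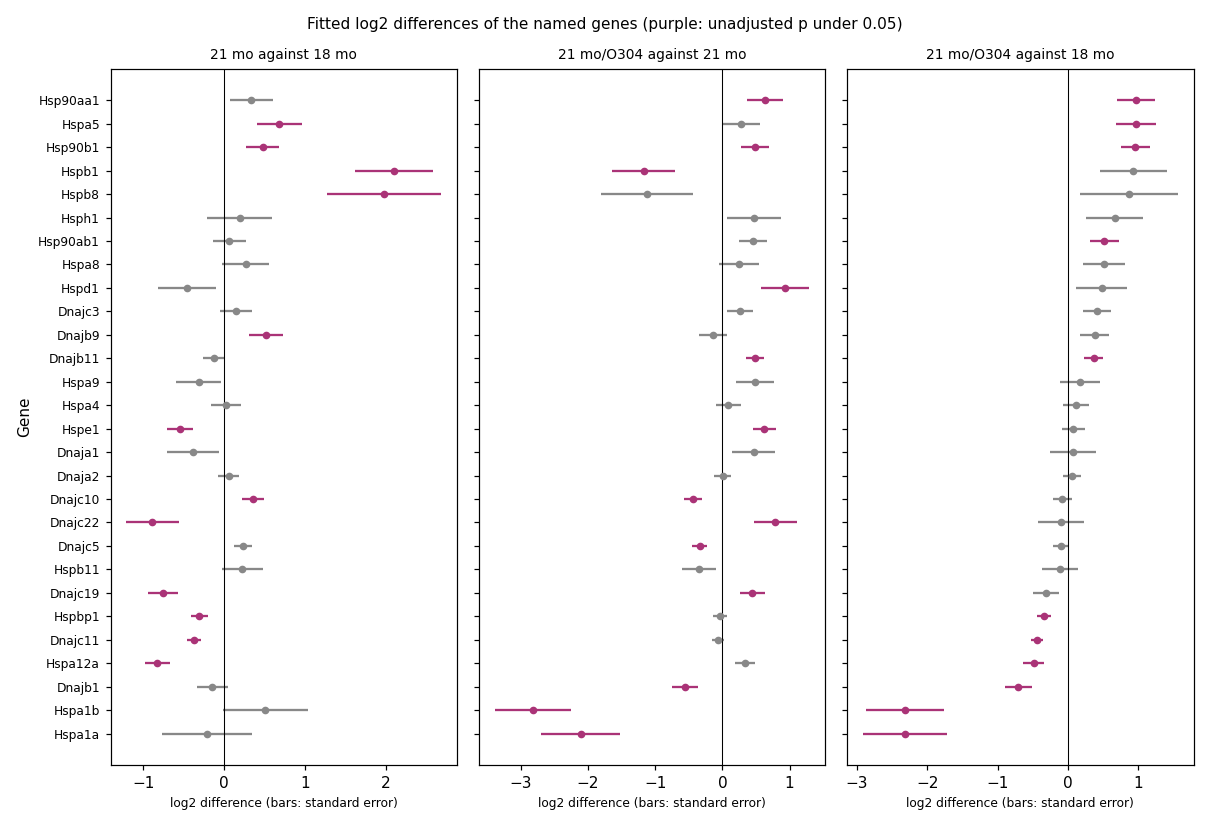
Fitted log2 differences (horizontal axes, bars are the SE of the edgeR fit over 9 libraries) of the 28 named genes (vertical axis) in the 3 comparisons. Purple marks an unadjusted p under 0.05, and no gene passed after adjustment. Hspa1a and Hspa1b lie at the far left of both comparisons with O304, and Hspb1 and Hspb8 at the far right for 21 mo against 18 mo.

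The partners of these chaperones were read from lists drawn up by function. In the ER folding and unfolded protein response list, 18 of 22 genes were higher under O304 than at 18 mo and 4 lower (median log2 difference 0.42 beside 0.00), 10 at an unadjusted p under 0.05 (45.5%, beside 9.66% of all genes) and 0 past the adjusted threshold. For 21 mo against 18 mo, also 18 were higher and 4 lower (median 0.26), 4 at an unadjusted p under 0.05 (18.2%, beside 26.1% of all genes). Against 21 mo, 17 were higher under O304 and 5 lower (median 0.20), 1 higher and 2 lower at that p (13.6%, beside 20.7%). Xbp1, the transcription factor of the unfolded protein response, was at 135, 164 and 169.5 CPM at 18 mo, 196, 251 and 229 CPM at 21 mo and 249.5, 368 and 215 CPM under O304, with every older kidney above every 18 mo kidney (0.83 ± 0.22 for 21 mo/O304 against 18 mo, adjusted p = 0.337). Hyou1, the ER relative of Hsp110, was at 85.2, 82.8 and 99.1 CPM at 18 mo, 126, 138 and 77.7 CPM at 21 mo and 134, 173 and 148 CPM under O304, and Sdf2l1, which works with Dnajb11, was 0.80 ± 0.23 above 18 mo (adjusted p = 0.345). The branch that runs through Eif2ak3 and Atf4 lay otherwise. Atf4 was at 104, 98.8 and 112 CPM at 18 mo, 90.7, 143 and 148 CPM at 21 mo and 79.1, 82.4 and 83.0 CPM under O304, lowest in the treated kidneys (-0.64 ± 0.18 against 21 mo, adjusted p = 0.175), and Eif2ak3 was 0.45 ± 0.12 between the untreated groups and -0.48 ± 0.13 under O304 relative to 21 mo.

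In the list of mitochondrial proteostasis partners, 10 of 11 were lower at 21 mo than at 18 mo and 1 higher (median -0.48), 7 at an unadjusted p under 0.05 (63.6%, beside 26.1% of all genes). All 11 of 11 were higher under O304 than at 21 mo (median 0.28), or 10 of 11 with upper-quartile scaling. At an unadjusted p under 0.05 there were 2 (18.2%, below the 20.7% of all genes). Grpel1, the nucleotide exchange factor of Hspa9, was at 123, 129 and 118 CPM at 18 mo, 102, 70.8 and 68.1 CPM at 21 mo and 96.0, 91.0 and 106 CPM under O304. The 18 mo kidneys were above the other 6, and the treated ones were nearer to the 21 mo group's upper end than to the 18 mo range. Its relative Grpel2 was instead highest under O304, at 49.6, 64.9 and 54.6 CPM at 18 mo, 50.5, 39.7 and 36.3 CPM at 21 mo and 72.5, 68.6 and 84.1 CPM under O304 (0.83 ± 0.16 against 21 mo, adjusted p = 0.175). The protease subunit Clpp differed by -0.48 ± 0.14 and 0.34 ± 0.14 for 21 mo against 18 mo and 21 mo/O304 against 21 mo.

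Of the 13 co-chaperones of Hsp90, 9 were higher under O304 than at 21 mo and 4 lower (median log2 difference 0.19). At an unadjusted p under 0.05, 3 were higher and 0 lower (23.1%, beside 20.7% of all genes). For 21 mo against 18 mo, 8 were higher and 5 lower (median 0.07), 3 higher and 2 lower at that p (38.5%, beside 26.1%). Under O304, 10 were higher than at 18 mo and 3 lower (median 0.40), 5 higher and 1 lower at that p (46.2%, beside 9.66%). Ahsa1, which speeds the ATPase of Hsp90, was at 54.6, 67.2 and 69.1 CPM at 18 mo, 79.5, 64.8 and 57.5 CPM at 21 mo and 91.6, 97.8 and 88.9 CPM under O304, with the treated kidneys highest (0.54 ± 0.15, adjusted p = 0.337). Ptges3 (p23) was higher in all 6 older kidneys than at 18 mo, at 71.2, 78.9 and 79.7 CPM at 18 mo, 96.3, 126 and 99.2 CPM at 21 mo and 119, 109 and 119.6 CPM under O304 (0.60 ± 0.13, adjusted p = 0.323). Stub1 (CHIP), the ubiquitin ligase that sends Hsp70 and Hsp90 clients to the proteasome, was lower in all 6, at 42.9, 45.7 and 42.5 CPM at 18 mo, 30.6, 22.8 and 26.5 CPM at 21 mo and 30.4, 25.1 and 32.4 CPM under O304 (-0.72 ± 0.14 for 21 mo and -0.58 ± 0.14 for 21 mo/O304 against 18 mo, adjusted p = 0.0626 and 0.337).

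Among the 11 nucleotide exchange and BAG proteins of Hsp70, 4 were higher and 7 lower under O304 than at 18 mo (median -0.03). At an unadjusted p under 0.05, 3 were higher and 1 lower (36.4%, beside 9.66% of all genes), and 7 did not overlap (63.6%, beside 26.5%). Against 21 mo, 3 were higher under O304 and 2 lower at that p (45.5%, beside 20.7%). For 21 mo against 18 mo, 1 was higher and 3 lower (36.4%, beside 26.1%). Bag2 was at 13.1, 16.0 and 15.1 CPM at 18 mo, 16.1, 28.9 and 29.1 CPM at 21 mo and 16.7, 14.1 and 12.9 CPM under O304, high in 21 mo replicates 2 and 3 alone. St13 (Hip), which holds Hsp70 in its client-bound state, was at 199, 230.3 and 225 CPM at 18 mo, 262, 229 and 168 CPM at 21 mo and 316, 299 and 321 CPM under O304 and was highest under O304 (0.51 ± 0.18 against 21 mo, adjusted p = 0.19). All 7 TRiC/CCT subunits found, which fold actin and tubulin, were higher under O304 than at 18 mo (median 0.23, 1 at an unadjusted p under 0.05, 14.3% beside 9.66% of all genes) and for 21 mo against 18 mo (median 0.16), though 6 of 7 in the latter with DESeq2. The 4 tested genes of the heat shock factor list were Hsf1, Hsf2, Hsf4 and Hsbp1, the last a protein that binds the factors. At an unadjusted p under 0.05 there were 0 of 4 in every comparison, beside 26.1%, 20.7% and 9.66% of all genes. For 21 mo against 18 mo, 1 of the 4 did not overlap between the groups (25%, beside 28.8% of all genes). Of 5 further heat shock and crystallin genes, Sec63, the J protein of the ER translocon, was 0.35 ± 0.11 and 0.36 ± 0.11 above 18 mo in the 21 mo and 21 mo/O304 groups, and Cryab was at 146, 42.6 and 50.4 CPM at 18 mo, 149, 150.3 and 124 CPM at 21 mo and 116, 50.0 and 20.8 CPM under O304. Its 3 treated kidneys lay below all 21 mo kidneys (-1.18 ± 0.62, adjusted p = 0.293), while the 18 mo kidneys overlapped both groups. Thick limb markers (Umod and Slc12a1) summed to 7006, 2405 and 2870 at 18 mo, 6025, 5757 and 2640 at 21 mo and 3471, 2225 and 1786 under O304, in CPM. Their part in Cryab was not tested.

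Adipocyte markers were higher in the treated kidneys. They had summed CPM of 91.5, 47.3 and 85.5 at 18 mo, 130.2, 58.4 and 38.9 at 21 mo and 307, 114 and 256 under O304, so that 21 mo/O304 replicate 2 was below 21 mo replicate 1 in the sum. As the mean log2 difference of the 7 tested genes of the 9 from the 18 mo group, the treated kidneys stood at 4.95, 1.96 and 4.37, and the highest untreated kidney, 18 mo replicate 3, at 1.64. Adipoq, a defining gene, was at 0, 0 and 1.41 CPM at 18 mo, 0.0669, 0 and 0.504 CPM at 21 mo and 21.6, 1.97 and 15.1 CPM under O304, and every treated kidney exceeded every untreated one. Adipoq and Lep were both at 0 in 18 mo replicates 1 and 2 and 21 mo replicate 2. The part of the adipocyte transcripts in the members' levels was not tested.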

How the data were processed

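Kidney RNA was sequenced in 9 libraries, 3 per group. The submitters' processing notes name HISAT2 2.0.5, featureCounts 1.5.0-p3, DESeq2 1.20.0 and GRCm38. Per the study's methods, the authors cleaned the paired reads, aligned them with the first tool and assigned them to genes with the second. The counts used here are raw, as the authors deposited them. FPKM values, deposited beside them by the authors, scale each count by gene length and library depth. Strandedness and the handling of multi-mapped reads are not given in the sources used here, and the authors' own fold changes and p-values in the table were not used. No source used here ties each library to a separate mouse.

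Of 54532 genes, 15902 passed filterByExpr (minimum count 10, minimum total 15). Group means of all 9 libraries were fitted with edgeR 4.0.16 (TMM scaling, quasi-likelihood F test, two-sided, 6 residual degrees of freedom, R 4.3.3), with Benjamini-Hochberg adjustment over all genes tested. An exact permutation test of 3 libraries against 3 cannot go below p = 0.1, so none is printed. CPM are TMM-scaled, and DESeq2 1.42.0 and limma 3.58.1 were alternatives beside another scaling, other filters, the replicate number as a block, FPKM and leaving out each library. The scripts were tested on simulated counts.

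The members and lists were chosen with earlier results of these data known. Named members are the 6 with the smallest p in each comparison, the 2 with the highest mean FPKM in each family, and Hspa1a, Hspa1b, Hspb1 and Hspa5, which gave 28. Partner genes were taken from up to 3 with the smallest p per list and comparison. Dnajb4, Dnajb6, Dnajb12, Dnajb13, Dnajc4, Dnajc6, Dnajc12, Dnajc15, Dnajc16, Hspa2, Hspa4l, Hspa13, Hspb2, Hspb6 and Hspb7, the partner genes chosen among those the rule gave, and the immediate early genes were picked after their values were seen. For 1 chaperonin and 1 ER partner symbol no matching name was found. Groups come from the sample titles. Nothing in the labels ties libraries to separate days or batches.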

Additional observations from a re-analysis of the deposited data

How the results depend on the processing

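In the order 21 mo against 18 mo, O304 against saline and 21 mo/O304 against 18 mo, edgeR on all 9 libraries called 0, 0 and 0 members and 3, 0 and 0 genes, with 17, 19 and 14 members at an unadjusted p under 0.05. DESeq2 called 6, 5 and 5 members and 2059, 947 and 126 genes. Without a filter on low counts the calls were 2, 0 and 0 members and 576, 17 and 0 genes. With only the 6 libraries compared they were 0, 0 and 1 and 0, 0 and 22, and 9, 10 and 26 members had an unadjusted p under 0.05. limma voom with quality weights called 37, 34 and 7 members and 8409, 6528 and 415 genes, with 41, 36 and 26 members at an unadjusted p under 0.05, and on the 6 libraries 34, 30 and 6, 7689, 5843 and 186 and 38, 35 and 27, its 21 mo mean resting on 1 kidney (quality weight 9.11). With the replicate number as a block, edgeR called 0, 0 and 0 members and 0, 0 and 0 genes, and 14, 21 and 13 members had an unadjusted p under 0.05. Whether libraries with the same replicate number share anything beyond it is not stated. Their deviations correlated at -0.130 to 0.175, which cannot decide this with 3 libraries a group. Leaving out each library in turn gave 0 to 17, 0 to 22 and 0 to 0 members called, 0 to 4186, 0 to 3808 and 0 to 12 genes called and 7 to 27, 9 to 33 and 10 to 21 members with an unadjusted p under 0.05. The high ends of the first 2 comparisons came without 21 mo replicate 1. In these fits 16.4 to 40.2%, 12.3 to 38.7% and 5.68 to 15.3% of all genes had an unadjusted p under 0.05. That share of all genes was 26.1%, 20.7% and 9.66% on all 9 libraries and 20.6%, 14% and 20.3% with the 6 compared. With the replicate block it was 24.4%, 19.5% and 9.07%. With voom it was 58.9%, 50.3% and 22.2%, or 57.5%, 49% and 22.3% on the 6 libraries. Of 1515 log2 differences of the 28 named genes, 1354 kept direction and side of the threshold, 119 kept direction and passed it, and 42 changed direction. The values in brackets are those of edgeR on all libraries. Between the untreated groups, Hspa1b (0.51) gave -0.34 to 0.94 over the libraries left out. Hspa1a (-0.21) gave 0.75 with voom, 0.31 with the pair merged, 0.75 with voom on 6 libraries and -1.04 to 0.29 over the libraries left out. Dnajb1 (-0.15) gave 0.24 with voom and 0.26 with voom on 6 libraries. Dnaja2 (0.054) gave -0.013 to 0.10 over the libraries left out. Dnajc3 (0.15) gave -0.055 to 0.30 over the libraries left out. Hspa4 (0.024) gave -0.0019 with the replicate block, -0.0100 with FPKM and -0.097 to 0.20 over the libraries left out. Hsph1 (0.19) gave -0.0056 with FPKM and -0.065 to 0.57 over the libraries left out. Hsp90ab1 (0.063) gave -0.0041 to 0.12 over the libraries left out. For O304 against saline, Hspbp1 (-0.037) gave -0.089 to 0.0015 over the libraries left out. Dnaja2 (0.0028) gave -0.018 with upper-quartile scaling, -0.0083 with no filter, -0.0045 with the stricter filter, -0.088 with voom, -0.094 with voom on 6 libraries and -0.052 to 0.061 over the libraries left out. Dnajb9 (-0.14) gave -0.34 to 0.088 over the libraries left out. Hspa4 (0.090) gave -0.033 with voom, -0.039 with voom on 6 libraries and -0.091 to 0.22 over the libraries left out. Hspa8 (0.25) gave -0.014 with voom and -0.018 with voom on 6 libraries. Hspb8 (-1.12) gave -1.60 to 0.10 over the libraries left out. Hspa5 (0.28) gave -0.14 with voom and -0.13 with voom on 6 libraries. For 21 mo/O304 against 18 mo, Dnaja1 (0.072) gave -0.040 to 0.17 over the libraries left out. Hspb11 (-0.12) gave -0.25 to 0.0011 over the libraries left out. Beyond those stated, the cause was not tested. With 3 libraries a group, 1 aberrant library can decide a call, and genes with few counts were left untested.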
